A study of Mus musculus with 9 samples.

Results

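The genes described here were 9 that mark simple and luminal mammary epithelium, Krt7, Krt8, Krt18, Krt19, Epcam, Rab25, Gata3, Elf5 and Prlr, chosen by gene symbol from the 22609 genes in the count tables. Keratins form the intermediate filaments of epithelial cells by pairing a type I with a type II chain. In simple epithelium, such as the luminal layer of the mammary duct, the type II chains Krt7 and Krt8 pair with the type I chains Krt18 and Krt19, whereas the basal layer and the epidermis use Krt5 and Krt14. Luminal mammary cells are also known for the surface protein Epcam, the transcription factors Gata3 and Elf5, and the prolactin receptor Prlr.

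RNA-seq was performed on 4T1 tumors, grown from a mouse mammary carcinoma cell line that is used as a model of triple-negative breast cancer (TNBC). In every group, 500000 4T1 cells were placed orthotopically into a mammary fat pad, with BALB/c mice as hosts, which had by then received their diet for 6 weeks. The LFD group received a diet with 10 kcal% fat and the vehicle, 0.3% hydroxy propyl cellulose. The HFD group received a diet with 60 kcal% fat and the same vehicle. The paper gives this vehicle for its xenografts in SCID mice. For the 4T1 tumors it names vehicle or EC359 without the composition, and does not name the LFD group. The HFD + EC359 group received the 60 kcal% fat diet and EC359, an inhibitor of the LIF receptor LIFR, at 5 mg/kg by intraperitoneal injection on 5 days per week. Each group had 3 libraries, which the series describes as separate tumors, so n = 3 throughout. The age of the mice is not given in the sources used here. All libraries came from 1 cell line and from whole tumors, which also hold host cells. In bulk tumors, fewer cells of a type and less RNA per cell cannot be told apart.

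Library totals ran from 5085357 to 6509130 counts in the LFD group, from 7314704 to 7922852 in the HFD group and from 8043649 to 9751201 in the HFD + EC359 group, so that depth differed between the groups. Levels are given as CPM, the counts scaled to a common library size after TMM normalization, with the SD over 3 libraries. Between replicate libraries, the biological coefficient of variation was 5.61%, 2.54% and 2.76% within the LFD, HFD and HFD + EC359 groups, and 3.63% in the common fit. This spread between libraries is small, and the adjusted p-values below rest on it. Whether it is the spread between separate mice was not tested. Tests used edgeR's quasi-likelihood method with Benjamini-Hochberg adjustment over all 13366 genes that passed a filter on low counts. Changes are given on the log2 scale with their standard error (SE), as a log2 fold change, and "rose" and "fell" are used for an adjusted p under 0.05.

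Of the 9 genes, 5 passed the filter (Krt8, Krt18, Epcam, Rab25 and Gata3), and the other 4 (Krt7, Krt19, Elf5 and Prlr) had at most 15 counts in any library. The name luminal therefore fits these tumors unevenly by level. Compared per kilobase of gene length in the LFD group, Krt18 (347 ± 8.13 CPM per kb) and Krt8 (332 ± 7.60), whose libraries met, stood above Gata3 (61.7 ± 0.942), followed by Rab25 (4.58 ± 0.736) and Epcam (3.59 ± 0.226). Krt19 (0.781 ± 0.230), Krt7 (0.243 ± 0.213), Prlr (0.101 ± 0.0388) and Elf5 (0.0233 ± 0.0404) came last, and the libraries of Krt7, Prlr and Elf5 overlapped. In the HFD group, Krt8 (226 ± 2.96 CPM per kb) stood above Krt18 (209 ± 5.29) and Gata3 (84.1 ± 0.843). There Epcam (0.663 ± 0.250), Rab25 (0.618 ± 0.428) and Krt19 (0.782 ± 0.523) overlapped one another, and Krt7 (0.302 ± 0.122) and Prlr (0.0591 ± 0.0403) stood below them in the mean, with Elf5 at 0. In the HFD + EC359 group, Krt8 (245 ± 4.23 CPM per kb), Krt18 (217 ± 6.38) and Gata3 (76.9 ± 2.68) kept that order, and Epcam (2.45 ± 0.341) and Rab25 (2.36 ± 0.603) overlapped. Krt19 (0.446 ± 0.182) and Krt7 (0.420 ± 0.190) overlapped there too, above Prlr (0.129 ± 0.0209) and Elf5 (0.0844 ± 0.0347).

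Krt8 and Krt18 are neighbours in the mouse genome. In build mm9, Krt8 lies on the minus strand of chromosome 15 from 101827142 to 101834773 with 9 exons, and Krt18 on the plus strand from 101858647 to 101862457 with 7 exons. Their starts are 23874 bases apart and point away from each other. Epcam lies on chromosome 17 from 88035319 to 88050467 (plus strand, 10 exons), Rab25 on chromosome 3 from 88345951 to 88352201 (minus strand, 5 exons) and Gata3 on chromosome 2 from 9778705 to 9800227 (minus strand, 6 exons). No exon of the 9 genes overlapped an exon of another gene in the annotation. The 250 bases before the start of the 5 tested genes are shown because these genes moved by different amounts and in different directions. The sequences come from RefSeq (table of build GRCm38.p6, in which 8 of the 9 genes had an entry), and each matched mm9 at 1 place: Krt8 at chr15:101834774-101835023 (minus strand), Krt18 at chr15:101858397-101858646 (plus), Epcam at chr17:88035069-88035318 (plus), Rab25 at chr3:88352202-88352451 (minus) and Gata3 at chr2:9800228-9800477 (minus). They read 5′ to 3′ in the direction of the gene, and capitals mark matches on either strand to the motifs named after them.
Krt8: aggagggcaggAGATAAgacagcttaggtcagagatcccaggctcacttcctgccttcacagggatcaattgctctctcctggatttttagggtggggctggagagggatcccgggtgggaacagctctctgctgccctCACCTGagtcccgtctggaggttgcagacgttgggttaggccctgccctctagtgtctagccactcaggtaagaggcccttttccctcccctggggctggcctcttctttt
Krt18: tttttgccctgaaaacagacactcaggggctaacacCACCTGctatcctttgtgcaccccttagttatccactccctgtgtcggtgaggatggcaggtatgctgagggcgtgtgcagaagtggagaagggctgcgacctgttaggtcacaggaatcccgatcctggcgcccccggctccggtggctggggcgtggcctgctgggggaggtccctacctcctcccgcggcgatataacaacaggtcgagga
Epcam: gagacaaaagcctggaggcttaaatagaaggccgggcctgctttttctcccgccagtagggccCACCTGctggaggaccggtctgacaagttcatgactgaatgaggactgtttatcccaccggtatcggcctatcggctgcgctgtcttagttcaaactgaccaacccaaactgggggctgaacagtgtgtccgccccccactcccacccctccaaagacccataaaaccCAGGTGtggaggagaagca
Rab25: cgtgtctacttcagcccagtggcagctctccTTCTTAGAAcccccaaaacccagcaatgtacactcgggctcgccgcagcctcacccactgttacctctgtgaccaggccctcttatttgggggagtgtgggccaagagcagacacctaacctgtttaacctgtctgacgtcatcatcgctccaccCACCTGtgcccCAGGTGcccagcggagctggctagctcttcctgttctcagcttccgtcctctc
Gata3: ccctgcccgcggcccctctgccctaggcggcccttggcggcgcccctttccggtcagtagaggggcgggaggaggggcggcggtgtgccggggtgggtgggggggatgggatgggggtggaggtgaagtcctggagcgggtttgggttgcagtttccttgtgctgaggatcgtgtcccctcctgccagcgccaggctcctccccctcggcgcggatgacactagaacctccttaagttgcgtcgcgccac

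Both strands were searched for the motif of Gata factors (AGATAA) and for an E-box that Snail and Zeb repressors bind (CACCTG). The other motifs searched were those of AP-1 (TGANTCA), Stat factors (TTCNNNGAA), the box bound by the general factor Tbp (TATAAA) and grainyhead factors (AACCGGTT). Krt8 held 1 AGATAA match and 1 CACCTG match, Krt18 held 1 CACCTG match, Epcam held 2 CACCTG matches, and Rab25 held 2 CACCTG matches and 1 TTCNNNGAA match. None of the 6 motifs matched in the Gata3 window. Over 32851 promoter windows of the same length, 9.99% held AGATAA, 17.2% CACCTG, 6.75% TGANTCA, 7.02% TTCNNNGAA, 12.4% TATAAA and 0.116% AACCGGTT. A match describes the letters of these windows only, and no binding was measured.

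The first comparison, HFD against LFD, asks which of these epithelial genes differed between tumors of mice on the different diets. Krt8 and Krt18 were lower by less than 2-fold, Epcam and Rab25 were lower by over 5-fold at low levels, and Gata3 was higher. The second, HFD + EC359 against HFD, asks what differed with the LIFR inhibitor on the same diet. There Epcam and Rab25 were higher by over 3-fold, whereas Krt8, Krt18 and Gata3 differed by under 10%.

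Among the simple keratins, Krt8 was the most abundant in counts. It measured 584, 602 and 611 CPM in the 3 LFD libraries, 406, 405 and 415 CPM in the HFD libraries, and 437, 451 and 440 CPM in the HFD + EC359 libraries. All HFD libraries lay below all HFD + EC359 libraries, which lay below all LFD libraries. Krt8 fell in HFD against LFD (log2 fold change -0.55, SE 0.034, edgeR adjusted p = 7.0e-15), which is a 1.47-fold lower level. With EC359 it rose by 0.12 on the log2 scale (SE 0.034, edgeR adjusted p = 0.0102), a 1.08-fold difference, and without HFD + EC359 replicate 2 this was no longer called (0.10, adjusted p = 0.0667). Against LFD, Krt8 in the HFD + EC359 group stayed lower (-0.44, SE 0.034, edgeR adjusted p = 8.32e-13).

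Krt18, the type I partner of Krt8, had 497, 474 and 487 CPM in the LFD libraries. It had 291, 301 and 287 CPM in the HFD libraries and 302, 314 and 297 CPM in the HFD + EC359 libraries. The LFD libraries stood above all others, while HFD and HFD + EC359 libraries overlapped. Krt18 fell in HFD against LFD (log2 fold change -0.73, SE 0.038, edgeR adjusted p = 5.87e-17), a 1.66-fold lower level. In HFD + EC359 against HFD the difference was 0.055 (95% interval -0.021 to 0.13, edgeR adjusted p = 0.304), and in HFD + EC359 against LFD it was -0.68 (SE 0.037, edgeR adjusted p = 2.31e-16). Both keratin genes are rich in G and C (56.9% of Krt8 and 56.4% of Krt18). When a trend with GC content and gene length was removed from each library, HFD against LFD was -0.34 for Krt8 and -0.52 for Krt18, and HFD + EC359 against LFD was -0.22 for Krt8 and -0.48 for Krt18, with each call kept.

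**Figure D1:**
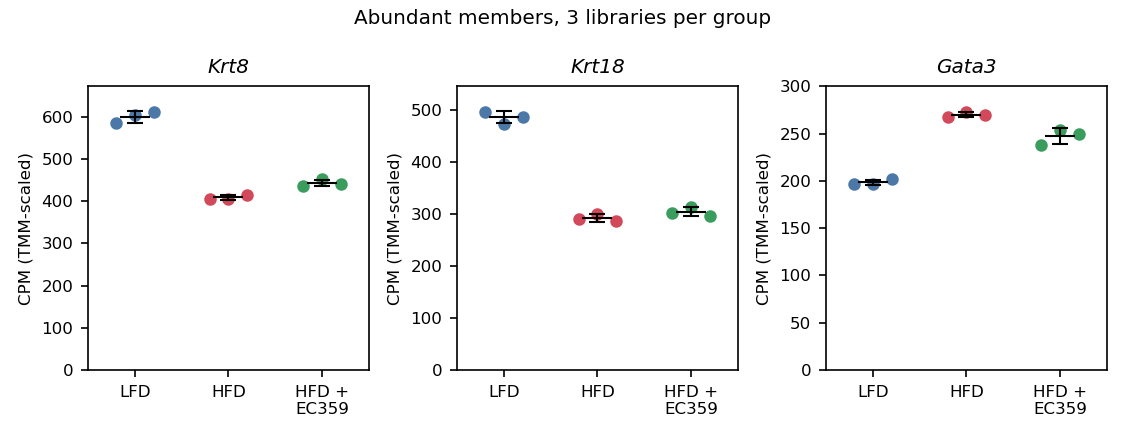
TMM-scaled CPM of Krt8, Krt18 and Gata3 (each on its own axis from 0) in LFD, HFD and HFD + EC359, with 1 point per library and the mean ± SD in black. The 3 LFD libraries lie highest for Krt8 (584 to 611 CPM) and Krt18 (474 to 497 CPM) and lowest for Gata3 (197 to 202 CPM).

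Since type I and type II chains pair in the filament, the ratio of Krt8 to Krt18 within a library was compared, which does not depend on library scaling. The Krt8 to Krt18 ratio of counts per kb was 0.912, 0.986 and 0.973 in the LFD libraries, 1.08, 1.04 and 1.12 in the HFD libraries, and 1.12, 1.11 and 1.15 in the HFD + EC359 libraries. Every LFD library had less Krt8 than Krt18 per kb, and every library of the other groups had more. The mean log2 ratio was higher by 0.18 in HFD than in LFD and by 0.24 in HFD + EC359 than in LFD (exact two-sided permutation p = 0.1 for each, the smallest that 3 against 3 libraries allow, and 0.15 after adjustment over 15 ratio comparisons). HFD + EC359 and HFD differed by 0.060 with overlapping libraries (exact permutation p = 0.2).

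Krt7, a type II chain of ducts and simple epithelia, was close to the limit of these libraries, where 3 counts correspond to 0.300 to 0.614 CPM. It had 0, 4 and 3 counts in the LFD libraries, 5, 2 and 4 in the HFD libraries, and 4, 9 and 5 in the HFD + EC359 libraries. The ratio of summed counts per library size was 1.16 for HFD against LFD (95% interval 0.411 to 3.53) and 1.38 for HFD + EC359 against HFD (0.618 to 3.24), so no difference was detectable at this depth. Krt19, a small type I chain of luminal and ductal cells, had 5, 5 and 8 counts with LFD, 15, 6 and 4 with HFD, and 4, 4 and 9 with HFD + EC359. Its ratios were 1.03 (0.538 to 1.998) and 0.574 (0.291 to 1.11), and HFD replicate 1 alone gave 15 of the 25 HFD counts. These exact intervals cover counting error only.

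Epcam encodes a homotypic adhesion protein of simple epithelia. It had 38, 48 and 39 counts in the LFD libraries, 7, 10 and 14 in the HFD libraries, and 41, 39 and 58 in the HFD + EC359 libraries. These were 7.77, 7.54 and 6.87 CPM with LFD, 0.883, 1.31 and 1.91 CPM with HFD, and 4.97, 4.40 and 5.80 CPM with HFD + EC359. The groups did not overlap in CPM, with HFD lowest and LFD highest. Epcam fell in HFD against LFD by 2.43 on the log2 scale (SE 0.27, edgeR adjusted p = 4.41e-09), a 5.40-fold lower level, and rose in HFD + EC359 against HFD by 1.90 (SE 0.27, edgeR adjusted p = 1.53e-06), a 3.72-fold higher level. HFD + EC359 against LFD was -0.54 (SE 0.20, edgeR adjusted p = 0.0210). That last call was not kept without the first LFD library (adjusted p = 0.0536), the second LFD library (0.0580), the first HFD + EC359 library (0.0503) or the second (0.0914), nor by DESeq2 (0.0659).

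Rab25 is a small GTPase of the Rab11 family, found in epithelial cells and known for recycling of membrane proteins to the apical surface. Its counts were 28, 27 and 26 with LFD, 3, 9 and 3 with HFD, and 22, 27 and 18 with HFD + EC359. In CPM these were 5.73, 4.24 and 4.58, then 0.378, 1.18 and 0.409, then 2.67, 3.05 and 1.80. As for Epcam, the HFD libraries lay below and the LFD libraries above all others. Rab25 fell in HFD against LFD by 2.84 on the log2 scale (SE 0.38, edgeR adjusted p = 1.56e-07), a 7.16-fold lower level, and rose in HFD + EC359 against HFD by 1.89 (SE 0.40, edgeR adjusted p = 0.000521), a 3.71-fold higher level. HFD replicate 2, with 9 counts, set these sizes: without it they were 11.7-fold lower (-3.55, adjusted p = 3.53e-07) and 6.08-fold higher (2.60, adjusted p = 0.000301). HFD + EC359 stayed below LFD (-0.95, SE 0.28, edgeR adjusted p = 0.00395).

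**Figure D2:**
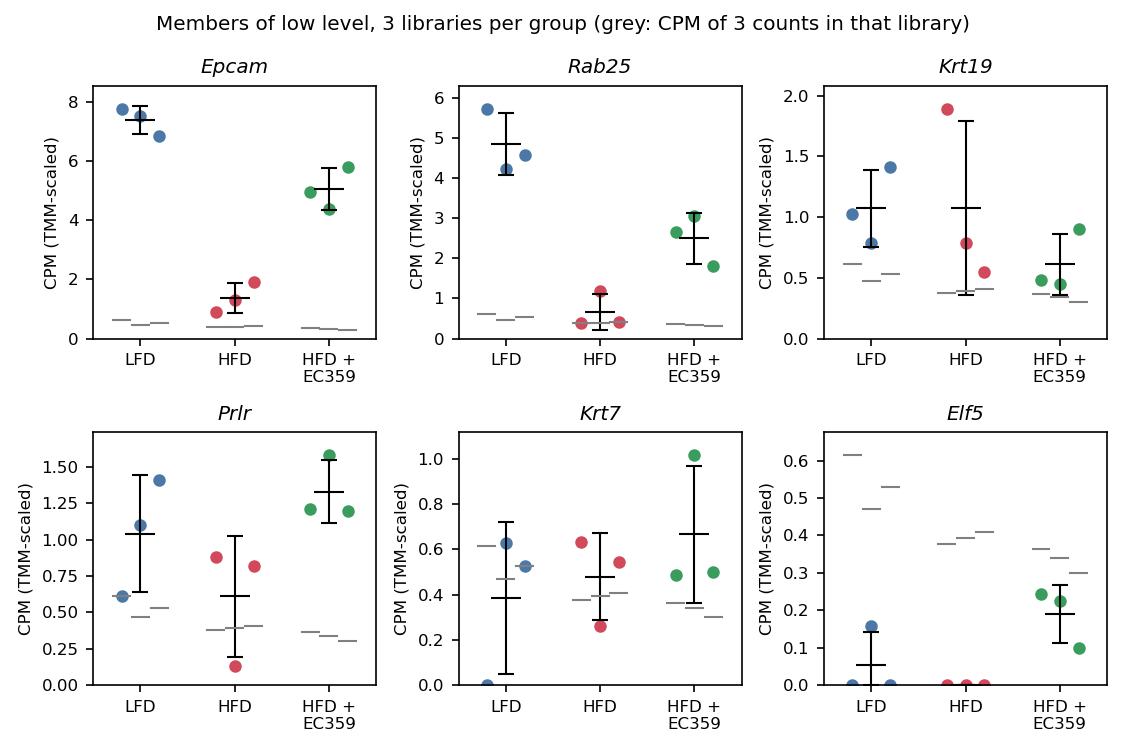
TMM-scaled CPM of Epcam, Rab25, Krt19, Prlr, Krt7 and Elf5 (each on its own axis from 0), with 1 point per library, the mean ± SD in black (the lower bar stops at 0) and grey lines at the CPM that 3 counts give in that library. Epcam and Rab25 lie lowest in HFD (0.883 to 1.91 and 0.378 to 1.18 CPM), while the groups of Krt19 and Krt7 overlap and every point of Elf5 lies under its grey line.

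Epcam and Rab25 also moved relative to Krt8 within each library. The Epcam to Krt8 log2 ratio was lower by 1.95 in HFD than in LFD and higher by 1.83 in HFD + EC359 than in HFD (exact permutation p = 0.1 for each, the smallest possible). HFD + EC359 and LFD differed by -0.12 in this ratio, with overlapping libraries (exact permutation p = 0.6). For Rab25 to Krt8 the differences were -2.53 in HFD against LFD and 1.99 in HFD + EC359 against HFD, and HFD + EC359 differed from LFD by -0.54 (exact permutation p = 0.1 for each). Epcam and Rab25 passed the filter through their LFD and HFD + EC359 libraries, so a difference from HFD was needed for them to be tested at this level.

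Gata3, a zinc finger transcription factor needed for luminal mammary differentiation and also made by T cells and innate lymphoid cells, moved the other way. Its LFD libraries had 197, 197 and 202 CPM, its HFD libraries 268, 273 and 270 CPM, and its HFD + EC359 libraries 238, 254 and 250 CPM. All 3 groups were apart, with LFD lowest and HFD highest. Gata3 rose in HFD against LFD (log2 fold change 0.45, SE 0.041, edgeR adjusted p = 9.47e-11), a 1.36-fold higher level. In HFD + EC359 against HFD it fell by 0.13 on the log2 scale (SE 0.039, edgeR adjusted p = 0.0131), which was no longer called without HFD replicate 2 (-0.12, adjusted p = 0.0585) or HFD + EC359 replicate 1 (-0.10, adjusted p = 0.102). HFD + EC359 remained above LFD (0.32, SE 0.041, edgeR adjusted p = 5.34e-08). The Gata3 to Krt8 ratio per kb was on average 0.186, 0.372 and 0.314 in LFD, HFD and HFD + EC359, a 1.998-fold higher ratio in HFD than in LFD (exact permutation p = 0.1, the smallest possible).

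**Figure D3:**
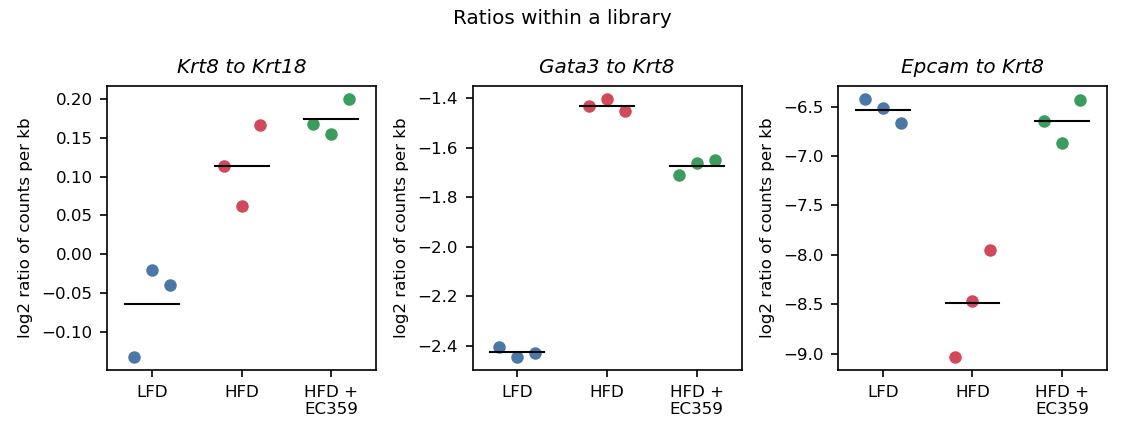
Log2 ratio of counts per kb within each library for Krt8 to Krt18, Gata3 to Krt8 and Epcam to Krt8 (each on its own axis, not from 0), with 1 point per library and the group mean as a line. The Krt8 to Krt18 ratio lies under 0 in the 3 LFD libraries and above 0 in the other 6, and the Epcam to Krt8 ratio of HFD + EC359 overlaps that of LFD.

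T cell and group 2 innate lymphoid markers were present at low levels beside Gata3. The 11 listed genes summed to 75.7 to 94.3 CPM in LFD, 92.2 to 98.9 CPM in HFD and 76.4 to 79.3 CPM in HFD + EC359, with none at 0 in all libraries. Most of this sum was Thy1 (58.7, 68.4 and 39.8 CPM), which fibroblasts also make. Cd3e, a T cell receptor subunit, had 2.07 ± 0.993, 1.87 ± 0.333 and 2.77 ± 0.579 CPM. Of 8 tested, Thy1 rose (0.21) and Cd4 fell (-0.59) in HFD against LFD, where 26.0% of all tested genes rose and 25.8% fell. In HFD + EC359 against HFD, Cd4 (0.78), Icos (0.94) and Il1rl1 (0.71) rose and Thy1 fell (-0.78), against 12.7% and 13.9% of all genes. The part of these cells in the Gata3 result was not tested.

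Elf5, the ETS factor of the alveolar lineage, had 0, 1 and 0 counts in the LFD libraries, 0 in each HFD library, and 2, 2 and 1 in the HFD + EC359 libraries. Every value was under 3 counts, and a count of 0 in the HFD libraries allows up to 0.378 to 0.409 CPM, so no difference was detectable. Prlr, the receptor that passes the prolactin signal to Jak2 and Stat5, had 3, 7 and 8 counts with LFD, 7, 1 and 6 with HFD, and 10, 14 and 12 with HFD + EC359. Its CPM in HFD + EC359 (1.20 to 1.58) lay above HFD (0.131 to 0.883), with a ratio of summed counts of 2.17 (95% interval for counting error 1.14 to 4.36). With every gene that had a count included, the edgeR adjusted p of this difference was 0.118.

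Of the 9 genes, 5 were tested. Among these 5, HFD against LFD called 1 higher (Gata3) and 4 lower (Krt8, Krt18, Epcam and Rab25) at an adjusted p under 0.05, where 51.8% of all 13366 tested genes were called, 26.0% higher and 25.8% lower. At the threshold in the study's methods, which is a fold of 2 with an adjusted p of 0.01, 2 were lower (Epcam and Rab25), where 2.68% of all genes were lower. In HFD + EC359 against HFD, 3 were higher (Krt8, Epcam and Rab25) and 1 lower (Gata3), against 12.7% and 13.9% of all genes, and 2 were higher by over 2-fold (Epcam and Rab25), against 2.06%. Epcam and Rab25 were tested only through their LFD and HFD + EC359 libraries. For this reason, the shares of all genes measure no excess of these 2 members. In HFD + EC359 against LFD, 1 was higher (Gata3) and 4 lower (Krt8, Krt18, Epcam and Rab25), against 29.2% and 29.1%, and 0 passed the fold of 2, against 5.09% of all genes in either direction. The 2 groups did not overlap in CPM for 5, 4 and 5 of the tested members in the 3 comparisons, where 57.1%, 41.3% and 62.9% of all genes did not overlap. The first and second comparisons share the HFD libraries.

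**Figure D4:**
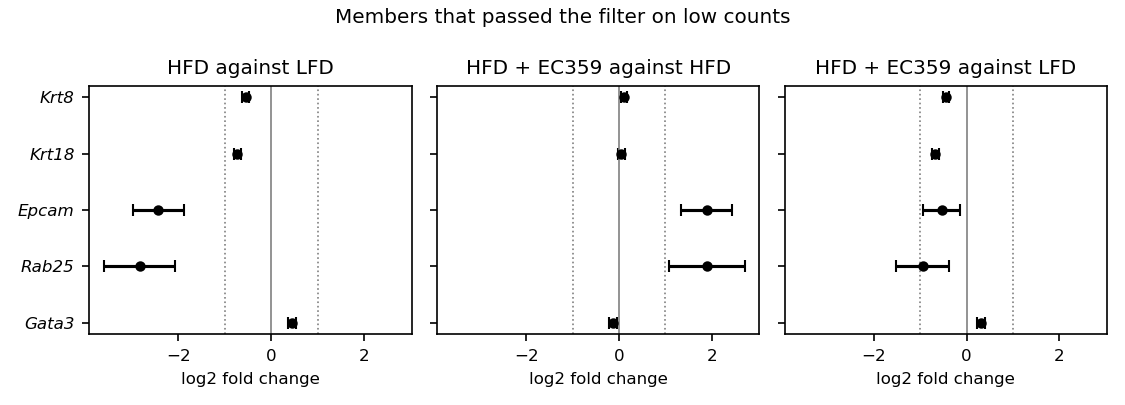
Log2 fold change with its 95% interval from the edgeR fit for the 5 members that passed the filter on low counts, in the 3 comparisons, with dotted lines at 2-fold. Epcam and Rab25 lie beyond 2-fold in the first 2 comparisons, whereas Krt8, Krt18 and Gata3 lie within it in all 3.

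The genes whose pattern over the 9 libraries was nearest to each abundant member were found by the root mean square difference of centred log2 CPM. For Krt8 they were S100a6 (0.035) and Slc27a4 (0.046), for Krt18 they were Loxl3 (0.030) and Wfdc2 (0.033), and for Gata3 they were Mki67 (0.032) and Ybx1 (0.036).

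Of the epithelial transcription and splicing factors, most fell with HFD and rose with EC359, the directions of Epcam and Rab25. Of 11 listed and 9 tested, 9 fell in HFD against LFD, 8 of them by over 2-fold, with a median log2 fold change of -2.10 (0.0071 over all tested genes). In HFD + EC359 against HFD, 7 rose and 0 fell, 6 by over 2-fold, with a median of 1.58 (0.0056 over all tested genes). Beside this list and the later ones, 26.0% of all tested genes were called higher and 25.8% lower in HFD against LFD. The shares were 12.7% and 13.9% in HFD + EC359 against HFD, and 29.2% and 29.1% in HFD + EC359 against LFD. The grainyhead factor Grhl1 measured 9.53 ± 1.55, 1.48 ± 0.833 and 6.57 ± 1.22 CPM in LFD, HFD and HFD + EC359 (log2 fold change -2.67, then 2.12), and Grhl2 fell by 1.19 and then rose by 0.89. Ovol1, a zinc finger repressor of mesenchymal genes, changed by -2.99 and 2.07. The splicing regulators Esrp1 (-2.22, then 1.58) and Esrp2 (-2.10, then 1.29) changed in the same directions. Among ETS factors, Ehf changed by -1.64 and 2.48, and Elf3 by -1.04, with 0.51 in the second comparison (edgeR adjusted p = 0.0575). The HFD libraries of Grhl1, Ovol1 and Ehf would not have passed the filter alone, so a higher level in another group was needed for them to be tested. Klf5, the most abundant of the list, had 69.2 ± 8.83, 30.2 ± 1.70 and 27.1 ± 0.821 CPM, falling by 1.19 with HFD, with a difference of -0.16 with EC359 (edgeR adjusted p = 0.234).

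Epcam acts at the cell surface beside tetraspanins, claudins and membrane proteases. Of 8 listed partners and regulators, 6 were tested, with 4 lower and 0 higher in HFD against LFD (median -0.94) and 5 higher and 0 lower in HFD + EC359 against HFD (median 0.52). Among those 5, Prss8 was tested only through LFD and HFD + EC359 libraries, so a level above HFD was needed for it to be tested. Spint1, an inhibitor of the protease matriptase, changed by -1.02 and 0.45. Its relative Spint2 had 320 ± 19.3, 182 ± 2.52 and 179 ± 4.62 CPM and fell by 0.81 with HFD, with -0.027 in the second comparison (edgeR adjusted p = 0.709). The tetraspanin Cd9 was 0.067 in the first comparison (edgeR adjusted p = 0.285) and rose by 0.36 in the second.

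The relatives of Rab25 in the Rab11 family and their effectors were present in all 3 groups. Of 7 listed relatives and effectors, 6 were tested, with 1 higher and 4 lower in HFD against LFD (median -0.29) and 1 higher and 1 lower in HFD + EC359 against HFD (median 0.030). Rab11a rose by 0.23 and Rab11b fell by 0.22 in the first comparison, with 0.11 (edgeR adjusted p = 0.218) and -0.052 (0.484) in the second. Rab11fip5, the most abundant effector on the list, fell by 0.36 and then by 0.18. Myo5b, the motor protein that carries Rab11 vesicles, had 3.39 ± 0.977, 0.217 ± 0.0699 and 2.25 ± 0.298 CPM, and its fitted changes were -3.83 and 3.27 from an HFD level below that of 3 counts per library, so that they depend on the prior count of the fit, and it too was tested only through its LFD and HFD + EC359 libraries.

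Hormone-sensing luminal genes did not move one way. Of 11 listed and 6 tested, 2 were higher and 3 lower in HFD against LFD (median -0.40), and 1 was higher and 2 lower in HFD + EC359 against HFD (median -0.19). Esr1, the estrogen receptor gene, had 6.81 ± 0.637, 12.7 ± 0.0814 and 8.53 ± 2.19 CPM (0.89, then -0.56), and Tbx3, a T-box factor, changed by 1.67 and -1.09. Among the paracrine signals on the list, Areg fell by 0.71 with HFD, Wnt4 by 1.63 and Tnfsf11 (RANKL) by 1.45. With EC359, Wnt4 rose by 1.19, while Areg (-0.19, edgeR adjusted p = 0.407) and Tnfsf11 (0.70, edgeR adjusted p = 0.289) were not called. In LFD, HFD and HFD + EC359, Wnt4 had 3.95 ± 0.704, 1.26 ± 0.283 and 2.92 ± 0.410 CPM. Tnfsf11 had 2.44 ± 0.467, 0.883 ± 0.416 and 1.38 ± 0.979 CPM. Neither gene would have passed the filter through its HFD libraries alone, so a higher level in another group was needed for it to be tested. Pgr, Foxa1, Cited1, Greb1 and Prom1 were too low to be tested.

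All 12 luminal progenitor and alveolar genes were tested. In HFD against LFD 5 were higher and 5 lower (median -0.15), and in HFD + EC359 against HFD 1 was higher and 3 lower (median 0.098). Cebpb, a factor of mammary lineage fate, had 1019 ± 80.9, 768 ± 29.0 and 659 ± 17.4 CPM (-0.41, then -0.22). Mfge8, a milk fat globule protein, changed by -0.43 and 0.13, and Sox9 by -0.22, with 0.11 in the second comparison (edgeR adjusted p = 0.166). Aldh1a3 fell by 1.19 with HFD (0.36 with EC359, edgeR adjusted p = 0.348). The secreted iron-binding proteins of this list went up: Ltf by 1.92 and Lcn2 by 1.33, after which Ltf fell by 1.39 with EC359 and Lcn2 was 0.13 (edgeR adjusted p = 0.0996). Which cells of the whole tumors made Ltf and Lcn2 was not tested.

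Prolactin bound to Prlr signals through Jak2 and Stat5 to the milk genes. Of 15 listed genes, 6 were tested, with 0 higher and 4 lower in HFD against LFD (median -0.18) and 3 higher and 1 lower in HFD + EC359 against HFD (median 0.12). Jak2 fell by 0.16 and again by 0.20, Xdh, an enzyme that also coats milk fat droplets, fell by 0.21 and rose by 0.35, and Stat5b was 0.026 (edgeR adjusted p = 0.717) and 0.030 (0.727). The casein genes Csn1s1, Csn1s2a and Csn1s2b and the whey gene Wap were at 0 in all 9 libraries, and Csn2, Csn3, Lalba, Glycam1 and Btn1a1 had 0 to 3 counts in each.

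The other Gata factors share the zinc fingers of Gata3 and the cofactors of the FOG family. Of 7 listed factors and cofactors, 4 were tested, with 1 higher and 1 lower in HFD against LFD (median -0.10) and 0 higher and 2 lower in HFD + EC359 against HFD (median -0.10). Gata2 fell by 0.77 with HFD (0.13 with EC359, edgeR adjusted p = 0.539), and Gata4 was -0.30 (edgeR adjusted p = 0.121) and 0.028 (0.919). The cofactor Zfpm1 (FOG1) was 0.089 (edgeR adjusted p = 0.273) and then fell by 0.23, and Zfpm2 (FOG2) had 0.754 ± 0.169, 2.36 ± 0.457 and 0.772 ± 0.0391 CPM (1.60, then -1.59). Zfpm2 was high enough to be tested only through its HFD libraries, so a difference from HFD was needed for it to be tested.

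**Figure D5:**
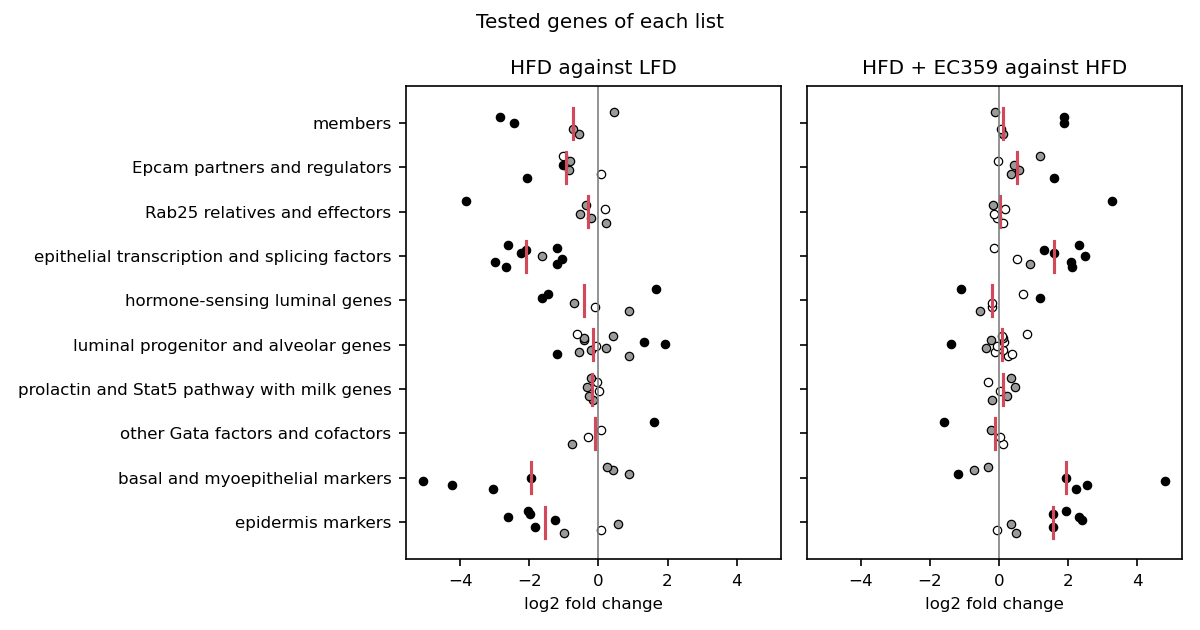
Log2 fold change of every tested gene of each list in HFD against LFD and HFD + EC359 against HFD, black where both the fold of 2 and the adjusted p of 0.01 were passed, grey for an adjusted p under 0.05 only, white otherwise, with the list median as a red line. Epithelial transcription and splicing factors lie left of 0 in the first comparison (median -2.10), and the gene farthest from 0 in both is Krt17 of the basal list (-5.07, then 4.80).

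Markers of other epithelia moved with Epcam and Rab25. Basal and myoepithelial markers, 9 listed, summed to 1170 to 1329 CPM in LFD, 182 to 196 CPM in HFD and 565 to 575 CPM in HFD + EC359, and none was at 0 in all libraries. Of 7 tested, 4 fell and 3 rose in HFD against LFD, and 4 rose and 3 fell in HFD + EC359 against HFD. The basal keratins made up most of the sum: Krt14 measured 762 ± 68.9, 40.6 ± 0.271 and 237 ± 3.00 CPM, Krt5 253 ± 15.8, 30.6 ± 4.69 and 143 ± 3.34 CPM, and Krt17 137 ± 2.82, 4.07 ± 0.913 and 114 ± 3.10 CPM. Trp63, the p63 factor of basal cells, had 12.0 ± 0.785, 3.06 ± 0.723 and 11.8 ± 1.73 CPM. The markers of contractile cells that were tested went the other way, with the smooth muscle actin Acta2 at 29.2 ± 2.64, 54.1 ± 1.38 and 23.8 ± 1.23 CPM, Myh11 changing by 0.43 and -0.71, and Mylk by 0.24 and -0.33. Epidermis markers, 8 of 9 of which were in the tables, summed to 200.1 to 205 CPM in LFD, 117 to 125 CPM in HFD and 181 to 187 CPM in HFD + EC359, with 6 lower and 1 higher in HFD against LFD and 7 higher and 0 lower in HFD + EC359 against HFD. The part of skin or basal epithelium in the results for Epcam, Rab25 and the epithelial factors was not tested.

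Markers of the stroma also differed between the groups. Fibroblast markers summed to 7818 to 9276 CPM in LFD, 13570 to 14323 CPM in HFD and 4020 to 4125 CPM in HFD + EC359, and the collagen genes Col1a1, Col1a2 and Col3a1 made up most of these sums. Of the 9 fibroblast markers, 9 rose in HFD against LFD, 1 rose and 5 fell in HFD + EC359 against HFD, and 4 were higher (Dcn by 1.34, Fap by 0.72, Pdgfra by 0.56 and Pdgfrb by 0.23) and 4 lower in HFD + EC359 against LFD. Endothelial markers summed to 202 to 210, 374 to 398 and 309 to 321 CPM. In the same order of groups, Krt8 had 599 ± 13.7, 408 ± 5.34 and 443 ± 7.64 CPM and Krt18 486 ± 11.4, 293 ± 7.41 and 304 ± 8.93 CPM. The part of stromal content in the keratin results was not tested.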

How the data were processed

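RNA-seq was performed by the authors on total RNA of 9 tumors, with stranded mRNA libraries. The deposited values were expected counts (estimated counts of read pairs, which may be fractions) that the authors obtained with featureCounts 1.5.0-p1 on mm9, as the file headers give it, with no normalization; the submitters' processing notes name HISAT2 2.1.0, while the paper's methods name TopHat2 and HTSeq. Between 1.19% and 3.55% of the genes of a library held fractions, and values were rounded to whole numbers, with 0.5 rounded up. In R 4.3.3, genes were filtered with filterByExpr, scaled with TMM factors and tested with edgeR 4.0.16 (quasi-likelihood, 1 fit of 3 groups, Benjamini-Hochberg over 13366 genes). A fold of 2 together with an adjusted p of 0.01 is the threshold of the study's methods. Alternatives were DESeq2 1.42.0, other scalings and filters, thinned counts, the comparison's own libraries, a replicate block, a GC and length trend (sequence of mm9), 1 added count in the ratios, and each library left out. The script was tested on simulated data.

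The members and all gene lists were chosen with earlier results of these data known. Genes named were the 9 members; in each pathway list, the 3 tested genes with the highest mean CPM and every gene past the fold of 2 in the first 2 comparisons, of which some are not reported here; defining markers of cell types where a value stands beside a result; and, for members with a mean of at least 10 CPM, the 2 genes of nearest pattern (log2 CPM with a prior count of 2). Pgr, Foxa1, Cited1, Greb1, Prom1, the milk genes, Acta2, Myh11, Mylk, the fibroblast genes, Thy1, Cd3e, Cd4, Icos, Il1rl1 and Mrc1 were named after their values were seen. So were Fabp4, Cfd, Adipoq, Krtdap, Lce1a1, Prss8, Myh1, Myh4 and Ckm. Lists of adipocyte, macrophage, neutrophil, mesothelium and skeletal muscle markers were also summed.

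Exact intervals and the limit of 3 counts cover counting error only.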

Additional observations from a re-analysis of the deposited data

How the results depend on the processing

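None of the 15 log2 fold changes of members changed direction under the alternatives run. Of the 15 log2 ratio differences, 14 kept their direction, while Krt19 to Krt18 in HFD + EC359 against LFD (-0.16, exact permutation p = 0.7) was 0.051 without LFD replicate 3 and 0.042 without HFD + EC359 replicate 2. With a filter of at least 10 counts in every library, Epcam and Rab25 were not tested, so at an adjusted p under 0.05 it called 3 members in HFD against LFD, 2 with EC359 on the same diet and 3 in HFD + EC359 against LFD, and 0 past the fold of 2 in the first 2 comparisons. That filter also lowered the genes past the fold of 2 from 763 to 356 and from 459 to 211, and from 680 to 418 in the last comparison, where removing the GC and length trend gave 407. With each library left out, members past the fold of 2 were 2 in both comparisons with HFD and 0 to 1 in HFD + EC359 against LFD, where Rab25 passed without LFD replicate 2 (2.07-fold lower) or HFD + EC359 replicate 2 (2.17-fold lower). Members with an adjusted p under 0.05 were then 5, 3 to 4, and 4 to 5.

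Gata3 in HFD + EC359 against HFD was not called with library totals alone (-0.095, adjusted p = 0.0648) or thinned counts (-0.11, adjusted p = 0.0724), nor was Epcam in HFD + EC359 against LFD with thinned counts (-0.49, adjusted p = 0.0690); over all alternatives the adjusted p ran from 0.000677 to 0.102 and from 0.0154 to 0.0914. The causes were not tested.

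The replicate numbers did not pair the libraries (correlations of same-numbered deviations from -0.030 to 0.017). With the number as a replicate block, 759, 457 and 676 genes passed the fold of 2, and no call of a member changed (2, 2 and 0 members past it, and 5, 4 and 5 at an adjusted p under 0.05).

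Ratios of Krt7 and Elf5 to Krt8 were not formed without an added count, because some libraries held 0 counts. Depth limits Krt7, Krt19, Elf5 and Prlr.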

Other observations

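Other cells of the tumors also differed between the groups. Macrophage markers summed to 1459 to 1491 CPM in LFD, 1422 to 1437 CPM in HFD and 1812 to 1839 CPM in HFD + EC359. In HFD against LFD, 5 of 8 tested genes were higher and 1 was lower, against 26.0% and 25.8% of all tested genes. The lower gene was Mrc1, the most abundant of the list (567 ± 24.8 CPM in LFD, 443 ± 7.19 in HFD). In HFD + EC359 against HFD, 8 of 8 were higher, against 12.7% of all tested genes. Neutrophil markers summed to 105 to 127, 134 to 147 and 169 to 175 CPM. Adipocyte markers summed to 31.5 to 36.7 CPM in LFD, 52.4 to 54.2 CPM in HFD and 54.5 to 59.8 CPM in HFD + EC359. Skeletal muscle markers summed to 112 to 126, 123 to 133 and 101 to 106 CPM, and mesothelium markers to 5.81 to 7.23, 3.53 to 4.98 and 2.43 to 2.60 CPM, with Upk1b at 0 in all libraries. The muscle sum held opposite changes: Myh1 changed by -1.14 and 1.53, Myh4 by 0.53 and -1.47, and Ckm by 1.13 and -1.33. Of 6 tested muscle genes, 3 rose and 1 fell in HFD against LFD, against 26.0% and 25.8%. In HFD + EC359 against HFD, 1 rose and 3 fell, against 12.7% and 13.9%.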
